A study of Rattus norvegicus with 4 samples.

Results

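The BCL2 family was followed across 4 doses of hydrogen peroxide (H2O2) in the cell line NRK-52E, which derives from rat kidney tubule epithelium. The members are 10 named genes, the BH3-only genes Hrk, Bmf, Bcl2l11, Bid and Bad, the effectors Bax and Bak1, and the pro-survival genes Bcl2, Bcl2l1 and Mcl1. All 10 had a probe named by its RefSeq accession, out of 8963 genes with such a probe, and a gene with several probes was read by its brightest one. Total RNA from confluent cells was labelled with Cy3 and hybridised to 1-colour Agilent arrays after 1 h in medium with 0% (control), 0.003%, 0.006% or 0.009% H2O2, a wash and 12 h without serum. All 4 cultures, the control included, thus went without serum, and each dose was measured on 1 array, so every value below stands for 1 culture and has no replicate check. The arrays shared 1 slide and their positions followed the doses, so that an effect of position cannot be told apart from one of dose.

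Proteins of the BCL2 family decide whether the outer membrane of the mitochondrion stays closed. Bax and Bak1 can form pores in it that let cytochrome c out, the step that starts the caspase cascade of intrinsic apoptosis. The pro-survival proteins hold the effectors in check, and the BH3-only proteins, each tuned to its own kind of stress, bind the pro-survival proteins or activate the effectors directly. Much of the family is also set after transcription, by phosphorylation (Bad), cleavage (Bid) or rapid protein turnover (Mcl1), none of which an RNA array measures.

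Values are signals scaled so that 100 is the 75th percentile of an array's noncontrol spots, and differences are log2 values from the control array. The error given is the scanner software's spot error. It covers the reading of a spot, leaves out any spread between cultures, and had a median of 0.21 over measured features at each dose. In bulk RNA, fewer cells expressing a gene and less RNA per cell cannot be told apart. On each array 51.8% to 54.9% of probes stood well above background, no spot was saturated, and the 75th percentile itself went from 180 in the control to 121 at 0.009%.

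At 0.003% H2O2, the lowest dose, 4 of the 10 members were at least 2-fold above the control: Hrk, Bcl2l11, Bid and Mcl1. None was 2-fold below it. Of all 22244 features compared at that dose, 15.2% were at least 2-fold higher and 13.5% lower, and of the named genes alone 16.1% and 12%. Bid was under 2-fold with array median scaling (0.98), spike-in scaling (0.94), quantile normalization (0.96) and normexp (0.35). At 0.006%, Hrk and Mcl1 were at least 2-fold higher and Bmf lower, against 15% of features higher and 10.5% lower (14.8% and 8.03% of named genes). Mcl1 was under 2-fold there with array median scaling (0.83) and spike-in scaling (0.58), which gave 1 member higher and 2 or 3 lower. At 0.009%, Hrk was higher and Bmf and Bcl2l1 were lower, against 16.5% and 7.52% of features (13.8% and 5.14% of named genes). The median difference of the 10 members was 0.82, 0.17 and 0.038 over the 3 doses, where that of all features compared was 0.03, 0.05 and 0.16. With array median scaling the members' median was 0.67, -0.14 and -0.52, and that of all features -0.12, -0.24 and -0.40. With spike-in scaling the members were at 0.63, -0.39 and -1.15, and all features at -0.16, -0.48 and -1.08. The members' median was 0.69, -0.012 and -0.021 with quantile normalization and 0.33, 0.15 and -0.11 with normexp. The 2-fold rule is one of size and not a test.

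**Figure D1:**
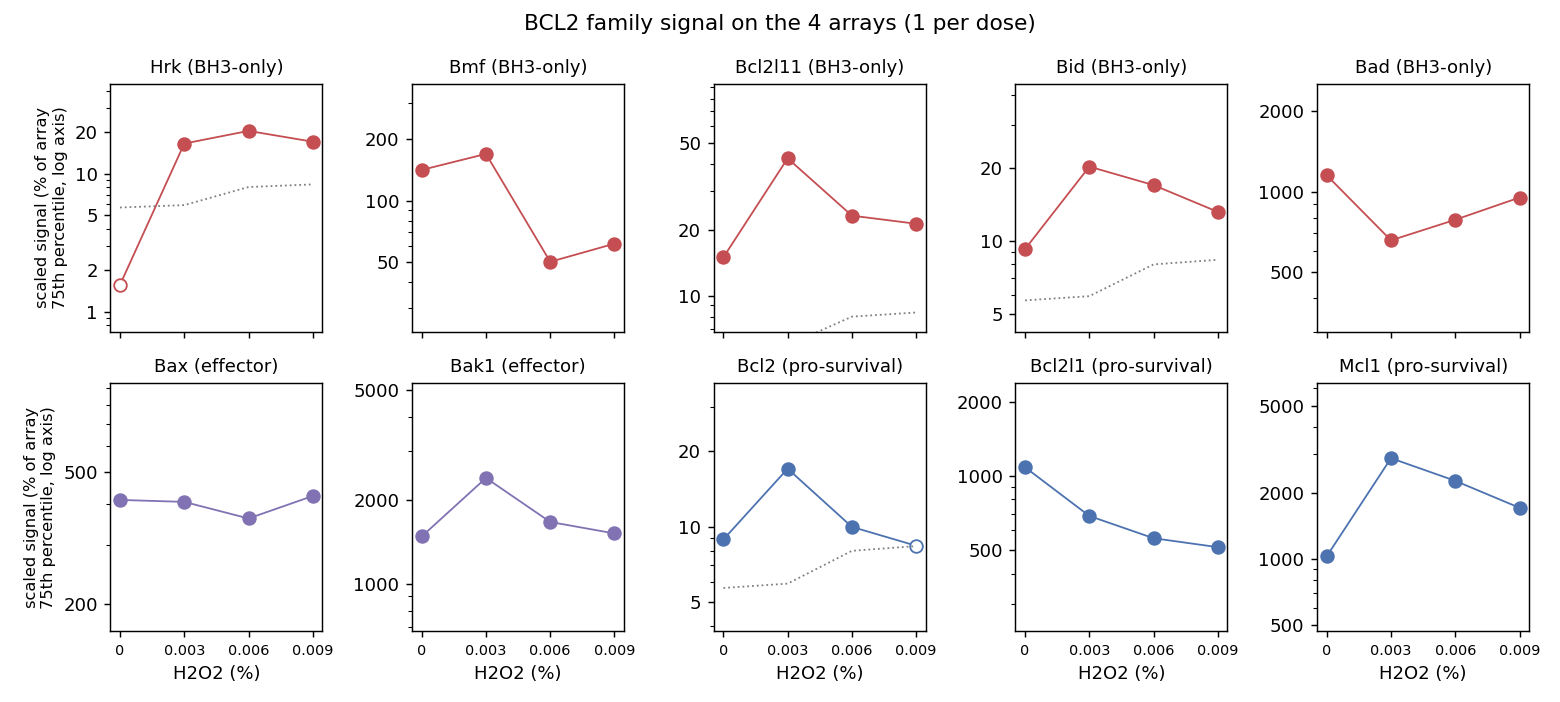
Scaled signal (percent of the array's 75th percentile, log axis) of each member on the 4 arrays, against the H2O2 dose in percent; every panel has its own axis. Filled points are well above background, open points are not, and the dotted line is the lowest signal well above background on each array. Mcl1, Bcl2l11, Bid, Bak1 and Bcl2 peak at 0.003%, while Bcl2l1 by its brightest probe declines from 1081 to 512.

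The sequences just before the transcription start are shown for the 4 members with the widest changes: Hrk, 2-fold higher at every dose, Bmf, 2-fold lower at 0.006 and 0.009%, and Bcl2l11 and Mcl1, highest at 0.003%. They are RefSeq starts on the GRCr8 assembly, 250 bases each, written 5′ to 3′ in the direction of the gene and ending at the last base before the start. Capitals mark matches, on either strand, to the motifs described after them; GC boxes are left in lower case.
Hrk (chr12:44070562-44070811, minus strand): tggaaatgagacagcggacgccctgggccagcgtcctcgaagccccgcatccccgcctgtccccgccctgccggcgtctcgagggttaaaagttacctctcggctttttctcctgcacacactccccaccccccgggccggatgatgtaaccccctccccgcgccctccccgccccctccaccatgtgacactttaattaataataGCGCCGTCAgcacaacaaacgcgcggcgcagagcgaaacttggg
Bmf (chr3:125974065-125974314, minus strand): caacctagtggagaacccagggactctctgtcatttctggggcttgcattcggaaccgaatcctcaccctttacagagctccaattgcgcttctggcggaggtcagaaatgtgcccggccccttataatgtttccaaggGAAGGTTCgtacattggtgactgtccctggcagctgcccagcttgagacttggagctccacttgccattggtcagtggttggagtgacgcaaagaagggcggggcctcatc
Bcl2l11 (chr3:135819792-135820041, plus strand): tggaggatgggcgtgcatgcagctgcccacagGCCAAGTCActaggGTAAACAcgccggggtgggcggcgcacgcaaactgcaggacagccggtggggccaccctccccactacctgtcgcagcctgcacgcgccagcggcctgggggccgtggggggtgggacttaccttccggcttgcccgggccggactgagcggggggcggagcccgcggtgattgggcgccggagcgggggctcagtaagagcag
Mcl1 (chr2:185907918-185908167, plus strand): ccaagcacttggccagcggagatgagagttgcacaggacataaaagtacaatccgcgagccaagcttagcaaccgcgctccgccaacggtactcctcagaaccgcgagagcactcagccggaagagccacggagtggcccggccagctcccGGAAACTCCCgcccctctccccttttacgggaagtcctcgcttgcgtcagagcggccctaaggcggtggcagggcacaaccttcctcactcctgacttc

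Capitals in Hrk mark the antioxidant response element TGACNNNGC, the site of NRF2, read on the opposite strand, 44 to 36 bases before the start. Those in Bmf mark GAANNTTC, a pair of heat shock element units, 111 to 104 bases before it. In Bcl2l11, which encodes Bim, they mark the antioxidant response element at 218 to 210 bases and the FOXO motif TGTTTAC at 204 to 198 bases, both on the opposite strand. In Mcl1 they mark an NF-kB motif at 99 to 90 bases, on the opposite strand. Of 33469 promoters of this length, 10.1% held the antioxidant response element, 7.23% the heat shock pair, 3.22% the FOXO motif and 4.53% the NF-kB motif. RefSeq starts were listed for 9 of the 10 members (12 starts). Bax had no start listed, so its promoter was not searched for any motif. None of the 12 promoters searched held AP-1 (TGANTCA), the cAMP response element (TGACGTCA), the MYC E box (CACGTG) or a p53 half-site, which 6.34%, 1.59%, 5.59% and 6.64% of all promoters held. GC boxes (GGGCGG), of which that of Mcl1 overlaps its NF-kB match, were present before 6 of the 9 genes (Hrk, Bmf, Bcl2l11, Bid, Bak1 and Mcl1). Counted by promoter this was 6 of 12, against 30.5% of all promoters. The GC content of these 6 promoters was 55.2% to 72%, where the median of all promoters was 51.2%. Of the promoters not shown, that of Bad held the FOXO motif, and 1 of the 4 starts of Bcl2l1 held the antioxidant response element and the C/EBP-ATF motif TGATGNAAT, present in 0.944% of all promoters. A match is only a run of letters, and no binding was measured.

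Among the BH3-only genes, Hrk, which encodes harakiri, a binder of pro-survival proteins known from neurons deprived of trophic factors, was well above background in the treated cultures alone. Its signal was 1.57 in the control, not well above background, then 16.5, 20.4 and 17.0 at 0.003, 0.006 and 0.009%. All 3 treated cultures were thus above the control, and steps among them (0.31 ± 0.30 from 0.003% to 0.006%, -0.26 ± 0.32 from there to 0.009%) were close to or below their spot errors. Against the lowest signal well above background in the control (5.68), the Hrk signal was higher by a factor of at least 2.91, 3.59 and 3.0. The second Hrk probe was also not well above background in the control (2.75) and was so in the treated cultures (9.46, 9.93 and 11.7), for bounds of 1.66-fold, 1.75-fold and 2.07-fold. The bound rests on where background is set: with normexp, which adds an offset of 50 to every signal, it was 0.38, 0.59 and 0.66 on the log2 scale. With spike-in scaling it was 1.35, 1.29 and 0.40, under 2-fold at 0.009%.

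Bcl2l11 encodes Bim, a BH3-only protein that binds every main pro-survival member and can activate Bax and Bak1. Its signal was 15.0 in the control, 42.6 at 0.003%, 23.2 at 0.006% and 21.3 at 0.009%. The lowest dose stood apart from the other 3 cultures. It was 2.85-fold above the control (log2 1.51 ± 0.25), then 0.64 ± 0.28 and 0.51 ± 0.28, the value at 0.009% turning to -0.050 when scaled to the array median and -0.68 when scaled to the spike-ins. The step from 0.003% to 0.006% was -0.87 ± 0.24. With normexp its value at 0.003% was 0.63, under 2-fold.

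Bid, which caspase-8 cleaves to carry a death receptor signal to the mitochondrion, had signals of 9.25, 20.3, 17.0 and 13.2 in order of dose, control first. It was lowest in the control and highest at 0.003%, where it was 2.19-fold higher (1.13 ± 0.32). The differences at 0.006 and 0.009% were 0.88 ± 0.34 and 0.51 ± 0.38. Its value at 0.009% was -0.038 with quantile normalization, -0.052 with array median scaling and -0.68 with spike-in scaling. Under normexp its value at 0.003% was 0.35.

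Bmf, a BH3-only protein held at the dynein light chain of the actin cytoskeleton and linked to loss of attachment, was lower at the 2 higher doses. Its signal was 141 in the control, 169 at 0.003%, 50.4 at 0.006% and 61.7 at 0.009%, so the cultures split into a high pair and a low pair. The difference from the control was 0.26 ± 0.21 at 0.003%, -1.49 ± 0.21 at 0.006% (2.80-fold lower) and -1.19 ± 0.21 at 0.009% (2.29-fold lower). The step from 0.003% to 0.006%, -1.75 ± 0.21, was 8.19 times its spot error and, in log2 units, the widest between neighbouring doses among the members measured on both arrays. The sign at every dose was kept under every scaling and background setting tried, with -0.98 and -0.74 at the 2 higher doses under normexp.

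Among 4987 named genes well above background on all 4 arrays, those whose 3 differences lay closest to those of Bmf were Pola2, a subunit of DNA polymerase alpha, Cbx8, a polycomb protein, and B3galt4, a galactosyltransferase. Their root mean square distances were 0.32, 0.32 and 0.36 on the log2 scale. Pola2 was at -0.29, -1.38 and -1.20, Cbx8 at -0.0044 at 0.003%, -1.01 and -1.34, and B3galt4 at 0.12, -0.98 and -1.53.

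Bad, whose protein is kept from pro-survival partners by 14-3-3 proteins once survival kinases phosphorylate it, was highest in the control. Its signal was 1152, 659, 786 and 952, with the lowest dose the furthest below it. The differences were -0.81 ± 0.20, -0.55 ± 0.20 and -0.28 ± 0.20, none of them 2-fold. The second Bad probe gave -0.72, -0.53 and -0.18. With spike-in scaling the order over dose turned, at -1.0, -1.11 and -1.46.

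**Figure D2:**
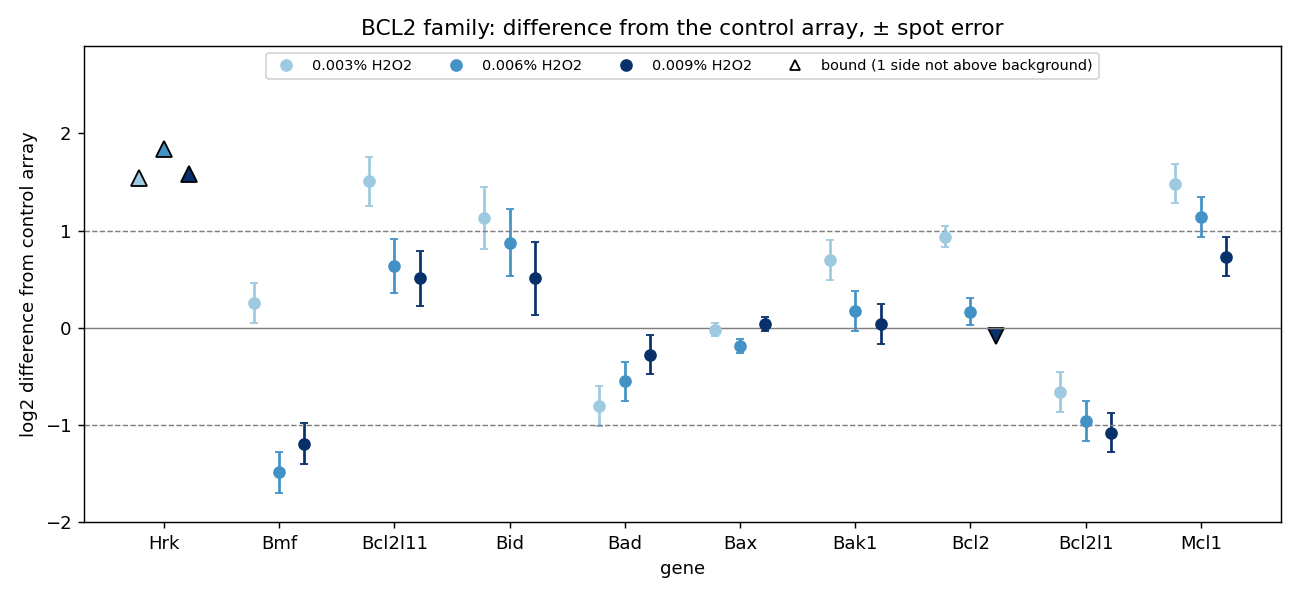
Log2 difference of each member from the control array at 0.003, 0.006 and 0.009% H2O2, with bars of ± 1 spot error. Triangles are bounds, where 1 of the 2 arrays was not well above background, and dashed lines mark 2-fold. Bmf lies at 0.26 at the lowest dose and below -1 at the 2 higher ones, and Bcl2l11, Bid, Bak1, Bcl2 and Mcl1 are furthest up at 0.003%.

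Of the effectors, Bax, a pore former that moves from the cytosol to mitochondria and is a p53 target, had the narrowest range of the members measured on all 4 arrays, 0.23 on the log2 scale. It was read by 10 spots of 1 probe, 8 of them used in the control, with SDs between spots of 0.047 to 0.059 on the log2 scale. Its signal was 412, 407, 362 and 424, with 0.006% the lowest. The differences were -0.020 ± 0.07, -0.19 ± 0.07 and 0.040 ± 0.07. At 0.009% the sign was negative with array median (-0.52), spike-in (-1.15) and normexp (-0.11).

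Bak1, the effector that resides in the outer membrane, had signals of 1480.4, 2406, 1669.9 and 1518. The lowest dose was above the other 3 cultures, at 0.70 ± 0.20 from the control, or 1.63-fold. The values at 0.006 and 0.009% were 0.17 ± 0.20 and 0.036 ± 0.20, both within the spot error. They turned negative with array median scaling (-0.14 and -0.53) and spike-in scaling (-0.38 and -1.15), and the second also with quantile normalization and normexp.

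Of the pro-survival genes, Mcl1, whose protein is short-lived and needs steady transcription, was above the control at every dose. Its signal was 1029 in the control and 2878, 2269 and 1710.2 at the 3 doses, so the excess was smaller the higher the dose. The differences were 1.48 ± 0.20 (2.80-fold), 1.14 ± 0.20 (2.21-fold) and 0.73 ± 0.20 (1.66-fold). The second Mcl1 probe gave 1.60, 1.42 and 0.94. The value at 0.003% was 2-fold or more under every scaling and background setting tried (1.29 to 1.48), while that at 0.009% was 0.17 when scaled to the array median and -0.45 when scaled to the spike-ins.

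Bcl2, the founding member, was close to background on these arrays. Its 10 spots averaged 8.88 in the control, 17.0 at 0.003%, 9.97 at 0.006% and 8.38 at 0.009%. Well above background were 9 of 9 used spots, 10 of 10, 5 of 10 and 1 of 10. The lowest dose was the highest of the 4, at 0.94 ± 0.11 from the control (1.92-fold), and 0.32 with normexp. The 0.006% value of 0.17 ± 0.14 was negative with array median, spike-in and quantile scaling. At 0.009% only a bound is given, at least 1.06-fold lower.

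Bcl2l1, which encodes Bcl-xL, was the member whose value turned on the probe. The array carried 4 named probes for it, which match different RefSeq transcripts of the gene. The brightest, A_44_P254238, assigned in the files to the transcript NM_001033670, had signals of 1081, 685, 557 and 512, lower at each higher dose, at -0.66 ± 0.20, -0.96 ± 0.20 and -1.08 ± 0.20. The other 3 were assigned to NM_031535. Of these, A_42_P623909 had 37.5, 80.2, 41.4 and 31.4, a 2.14-fold higher signal at 0.003% (1.10 ± 0.21), then 0.14 ± 0.22 and -0.26 ± 0.22. A_44_P548065 had 14.8, 19.5, 14.7 and 17.0, with 0.39 ± 0.25 at 0.003%. A_43_P12577, on 10 spots, was well above background at 0.003% alone, on all 9 spots used there and on none in the other 3 cultures, for a bound of 1.86-fold. At 0.003%, then, the probes on NM_031535 read 0.39 to 1.10 above the control, bound included, where the probe on NM_001033670 read 0.66 below it. Reading Bcl2l1 by its second brightest probe would put it among the members at least 2-fold higher at 0.003% and take it out of those lower at 0.009%. RefSeq lists 4 starts for the gene within 1525 bases of each other. The table used does not pair those starts with transcripts, so probes were not tied to starts, and cross-hybridisation of single probes was not tested.

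**Figure D3:**
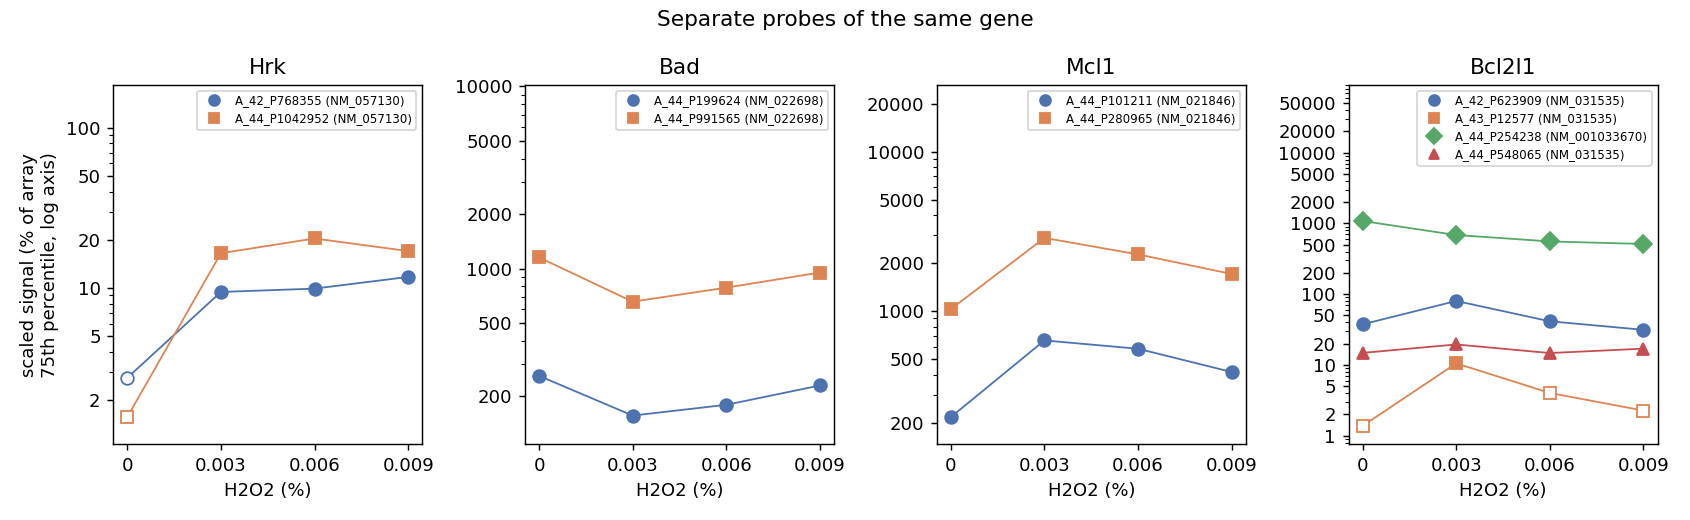
Scaled signal (percent of the array's 75th percentile, log axis) of every named probe of the 4 members with several, against H2O2 dose in percent; filled points are well above background. The probes of Bad and of Mcl1 have the same order of doses, both Hrk probes are filled in the treated cultures alone, and the probe of Bcl2l1 on NM_001033670 declines while those on NM_031535 are highest at 0.003%.

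By array, 6 of the 10 members (Bmf, Bcl2l11, Bid, Bak1, Bcl2 and Mcl1) had their highest signal at 0.003%. Bad and Bcl2l1 were highest in the control, Hrk at 0.006% and Bax at 0.009%. Of 18103 features well above background on all 4 arrays, 27.3% were highest at 0.003%, and of the 4987 named genes among them 30.6%. Hrk and Bcl2, counted among the 10 members, did not pass that filter. The members' count was 4 with normexp, which moved Bid and Bcl2 to 0.009%, and 6 or 7 under the other settings tried.

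**Figure D4:**
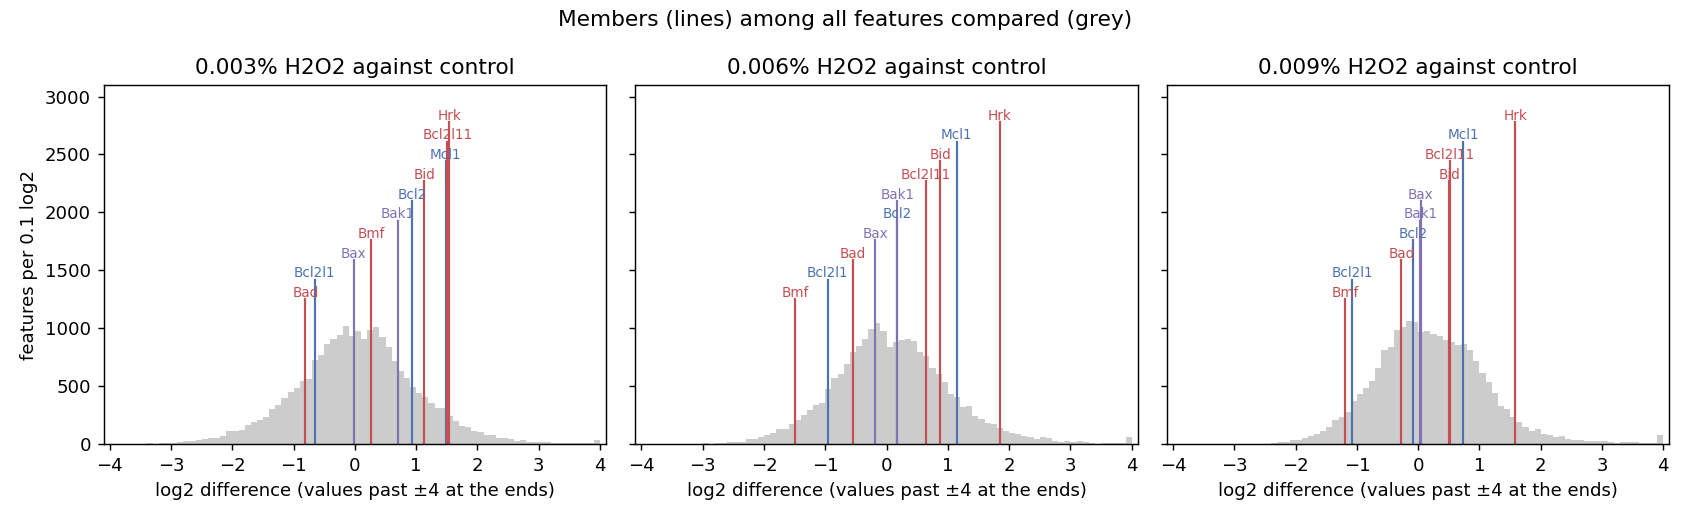
Number of features per 0.1 log2 against the difference from control at each dose (grey), with a line for each member (red BH3-only, purple effectors, blue pro-survival). Hrk, whose differences are lower bounds, is the furthest to the right of the members at every dose, and Bmf goes from the 59.7 percentile at 0.003% to the 4.08 percentile at 0.006%.

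Differences of 2 members' changes do not depend on scaling by 1 value per array. The change of Bax minus that of Bcl2 was -0.96 ± 0.13 at 0.003% and -0.35 ± 0.15 at 0.006%, while at 0.009%, where Bcl2 is only bounded, it was at least 0.12. With quantile normalization these values were -0.77, -0.015 and 0.88. The change of Bcl2l11 minus that of Mcl1 was 0.024 ± 0.32 at 0.003%, and -0.51 ± 0.34 and -0.22 ± 0.35 at the 2 higher doses. With normexp the first of these was -0.81.

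A straight line over dose was fitted to all 23767 features with limma on the 4 arrays, with a value not well above background set to the floor where it lay under it (Hrk in the control). No feature (0%) passed an adjusted p of 0.05, and 3648 (15.3%) had an unadjusted p under 0.05. With spike-in scaling no feature passed either, and 9287 (39.1%) had an unadjusted p under 0.05. The smallest adjusted p by limma was then 0.0735, a value that Bcl2l1 (unadjusted p = 0.00143) shared with other features. It does not set Bcl2l1 apart from them. Bmf had an adjusted p of 0.0752 by limma. With the 75th percentile, of the members, Bcl2l1 came nearest (log2 slope -0.12 ± 0.04 per 0.001% H2O2, adjusted p = 0.302 by limma), followed by Bmf (adjusted p = 0.339) and Hrk (adjusted p = 0.357). The other 7 had adjusted p-values of 0.729 to 0.986, and a line cannot follow members that peak at the lowest dose. The Bcl2l1 values, that with spike-in scaling included, are those of its brightest probe. With the mean of its named probes the slope was -0.032 ± 0.045 per 0.001% H2O2, and Hrk and Bmf came nearer than Bcl2l1.

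Of 14 other BCL2 family genes looked up, 9 had a named probe. Bcl2a1, Bik and Bcl2l14 were not well above background on any array. Bbc3, which encodes the BH3-only protein Puma, a p53 target, was at 0.79, 0.70 and 0.64 (± 0.20), with signals of 1812, 3126, 2945 and 2831. All treated cultures were above the control. The mitophagy receptor Bnip3 was at -0.61, -1.05 and -1.25, and its relative Bnip3l at -0.94, -0.79 and -0.63. Bok, an effector-like member, was at -0.66, -0.64 and -0.48, and Bcl2l10 at -0.20, 0.20 and 0.78, its sign turning at 0.003% with normexp, at 0.006% with 3 scalings and at 0.009% with spike-in scaling. The pro-survival Bcl2l2 was at 0.24, -0.13 and -0.52 by its brightest probe and at 0.98, 0.77 and 0.84 by its second. By these values, none of the 6 compared was 2-fold higher at any dose. Only Bnip3 was 2-fold lower, at 0.006 and 0.009%, and with normexp it was at -0.96 at 0.006%. Bnip3l was also 2-fold lower at every dose with array median scaling (-1.08, -1.10 and -1.19) and spike-in scaling (-1.13, -1.35 and -1.82). With quantile normalization it was so at 0.003 and 0.006% (-1.19 and -1.09). Bok and Bcl2l2 were 2-fold lower at 0.009% with array median scaling (-1.04 and -1.08) and spike-in scaling (-1.67 and -1.70). Bok was so at 0.006% with spike-in scaling (-1.20). The sign of Bbc3 at 0.009% turned with spike-in scaling, to -0.54. The medians of the 6 were -0.41, -0.39 and -0.50.

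Of all features compared, 15.2%, 15% and 16.5% were at least 2-fold higher over the 3 doses, and 13.5%, 10.5% and 7.52% lower. Of the named genes alone, 16.1%, 14.8% and 13.8% were higher, and 12%, 8.03% and 5.14% lower. The lists below are short, and their counts were not tested against these shares. Downstream of the pores, 2 of 14 apoptosome and caspase genes compared were at least 2-fold higher at 0.003% and at 0.006%, and none at 0.009%. Those lower numbered 0, 2 and 1, and the medians were 0.089, -0.26 and -0.046. Cycs, cytochrome c itself, was at 1.26, 1.08 and 0.65, Casp9, the caspase that it activates through Apaf1, at -0.84, -1.3 and -1.45, and Birc5, an inhibitor of apoptosis that also serves in mitosis, at -0.52, -0.050 and 0.74. Of 9 genes of the outer membrane and fission, 1 was 2-fold higher at 0.003% and at 0.006%: Mfn1, a fusion GTPase, at 1.18, 1.02 and 0.59. The medians of these 9 were 0.12, 0.080 and 0.0071. The channel gene Vdac1 was at 0.85 and the fission factor Mff at -0.33 at 0.009%. Among 14 partners and kinases, only Bag3, a co-chaperone with a BAG domain, was 2-fold higher, at 1.21, 1.72 and 1.99, and Gsk3b and Akt2 were both at -0.85 at 0.009%. The medians were 0.27, 0.20 and 0.27. Of 5 genes of turnover and cleavage, those 2-fold higher numbered 1, 2 and 2 over the doses, with 0 lower. Cflar, which holds back caspase-8 upstream of Bid, was at 2.74, 2.55 and 1.79, Trim17, a ligase of Mcl1, at 0.62, 1.02 and 1.47, and Fadd, the adaptor of caspase-8, at 0.82, -0.057 and -0.70. The medians were 0.62, 0.48 and -0.14, that at 0.006% over 4 genes, since Casp8 gave no difference there. Trim17 was near background in the control, at 7.40 where the lowest signal well above background was 5.68. It was under 2-fold at every dose with array median, spike-in and quantile scaling and with normexp. At 0.009% it was at 0.90 with array median scaling, 0.28 with spike-in scaling and 0.59 with normexp. Cflar was under 2-fold at 0.009% with spike-in scaling (0.60). Of 8 transcription factors known to act on members, 5 were at least 2-fold higher at every dose, with Myc at 2.73, 3.06 and 2.98, Atf4 at 2.48, 2.69 and 2.64, and Jun at 1.3, 1.87 and 2.36, and the medians of the 8 were 1.41, 1.83 and 2.0. With spike-in scaling the signs of Birc5, Cycs, Vdac1 and Mfn1 at 0.009% were negative. Mfn1 was under 2-fold at 0.006% with array median scaling (0.71), spike-in scaling (0.47) and normexp (0.82). At 0.003% it was so with spike-in scaling (0.99) and normexp (0.97). Cycs was under 2-fold at 0.006% with array median (0.77) and spike-in scaling (0.53). Bag3 was so at 0.003% with quantile normalization (0.99) and at 0.009% with spike-in scaling (0.80). Casp9 was under 2-fold at every dose with normexp (-0.55, -0.81 and -0.75).

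**Figure D5:**
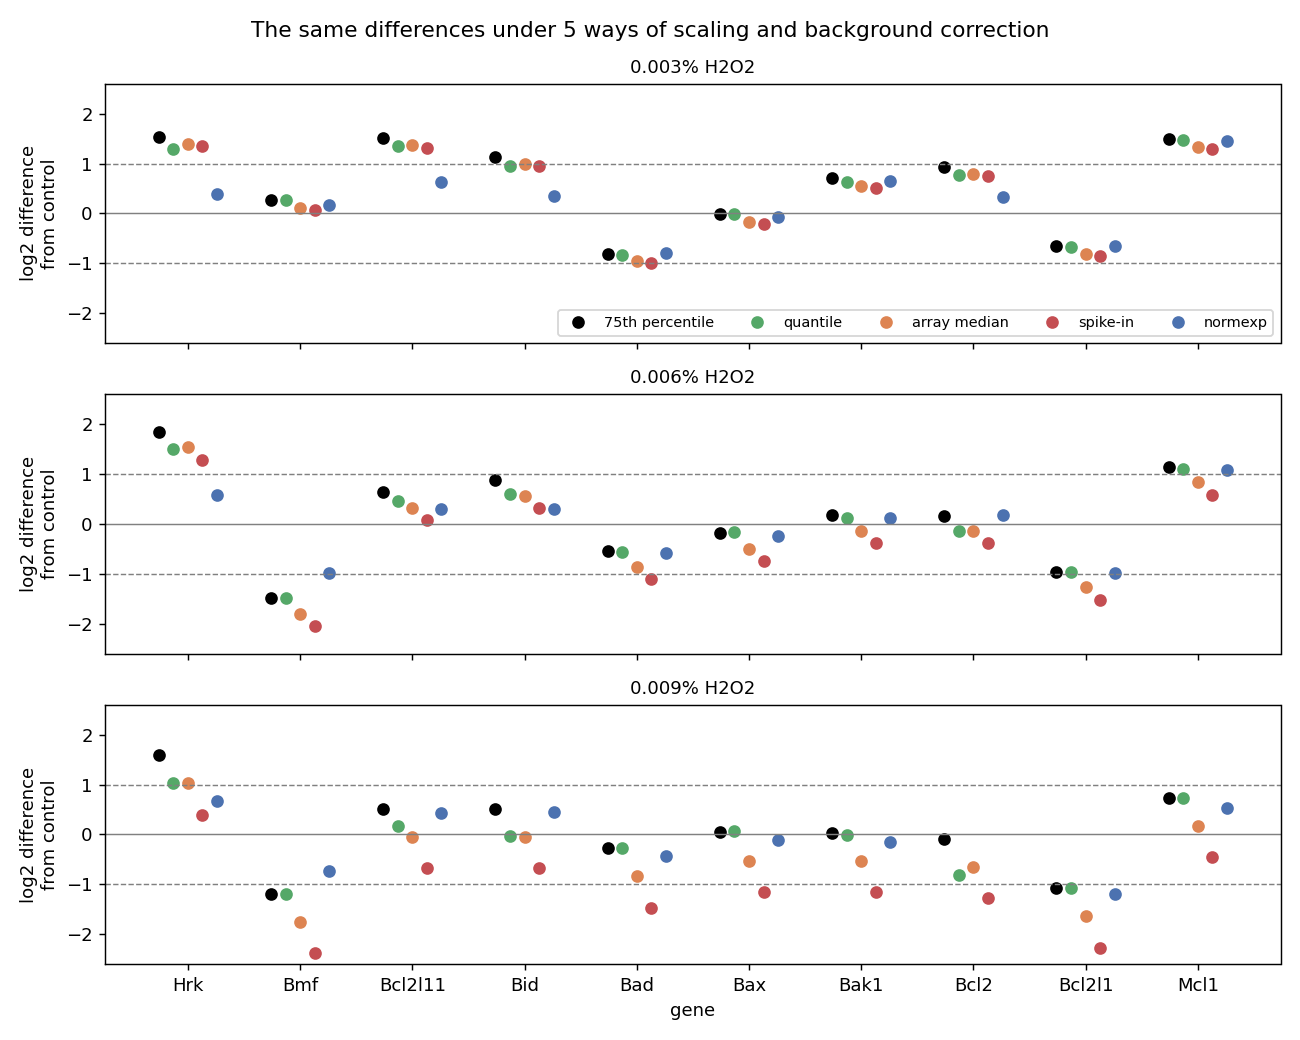
Log2 difference of each member from control at the 3 doses under the 75th percentile scaling used here, array median scaling, spike-in scaling, quantile normalization and normexp background correction. At 0.003% array median and spike-in scaling lie up to 0.19 below the 75th percentile scaling, while at 0.009% spike-in scaling puts 6 members at least 2-fold below the control and none above.

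The split between higher and lower features differed by scaling. Of all features at least 2-fold away at 0.006%, 58.9% were higher with the 75th percentile, 34.4% on the array median and 19.4% on the spike-ins. At 0.003% these shares were 52.9%, 42.0% and 39.1%. Of all features at least 2-fold away at 0.009%, 68.7% were higher with the 75th percentile, 47.2% after quantile normalization, 21.0% on the array median and 4.48% on the spike-ins. For the members, 1 higher and 2 lower became 0 and 6 with spike-in scaling.

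The cells were checked against marker lists of the tissue and of other cell types. In the control, 7 of 14 epithelial and tubule markers with a named probe were well above background, and 8 or 9 in the treated cultures, with summed signals of 6223, 5755, 4608 and 4021, mostly Krt8. Other markers of this list did not follow the sum. Krt18 was at 2.22, 2.76 and 3.1 from the control on the log2 scale, Krt19 at -0.26, 1.01 and 1.64, and Aqp1, a water channel of the proximal tubule, at -2.11, -1.85 and -1.33. Krt18 was near background in the control, at 6.46 where the lowest signal well above background was 5.68. Epcam, Pax8 and the proximal tubule transporter Slc34a1 were not well above background on any array. Of 7 fibroblast markers, 4 (Vim, Col3a1, Col1a2 and Pdgfrb) were so on every array, with summed signals of 7433, 3769.8, 4547 and 5710.1. Thy1, Dcn and Lum were not well above background on any array. This sum was lowest at 0.003%, the dose at which most members were highest, and its part in the members' values was not tested. Of 5 macrophage and leukocyte markers, 2 or 3 were well above background, mainly Cd14, with summed signals of 4199, 2703, 2249.5 and 2329.7, and Itgam was so on none. That sum followed Cd14, at -0.71, -1.10 and -1.06 from the control on the log2 scale. Another marker of the list, well above background on every array, went the other way, at 0.28, 0.79 and 0.88. Of 2 endothelial markers Kdr alone was above background, with sums of 12.0, 21.6, 26.4 and 34.0.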

How the data were processed

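NRK-52E RNA was read on 4 Agilent 1-colour arrays, 1 per dose, scanned on 1 slide. Per the file headers, Agilent Feature Extraction made the deposited intensity values, background-subtracted and not normalized between arrays. The deposited ratio table was found to be each probe's mean intensity over the array median, equal within 1e-06 for 100% of 41012 probes (column medians 0.955 to 0.972), so its scale and direction are known and its rows were an alternative.

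Spots marked as outliers were left out, spots of a probe averaged, intensities divided by the array's 75th percentile of noncontrol spots and log2 taken. A probe counted as well above background where at least 50% of its spots were. Where 1 of 2 arrays was not, that side took its own value or, if higher, the lowest signal well above background there, which makes the difference a bound. A bound pointing the wrong way gave no difference but stayed among the features compared. Probes were named through RefSeq accessions (10834 of 41007 used probes, 26.4%), the brightest taken per gene. Genes named are all 10 members, 14 other family genes and, from each of 5 lists, the 3 with the largest difference at 0.009%. The members and lists were chosen with earlier results of these data known. Further named features (second probes, markers) were singled out after their values were seen, and 1 marker is not reported here by name.

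The trend used limma 3.58.1 in R 4.3.3 with 2 residual degrees of freedom, adjusted by Benjamini-Hochberg over all features. Its code was also run on simulated straight-line changes with independent noise. That run checks the code and does not show the power of the fit on these arrays. Tables were made with Python 3.11.15, pandas 2.3.3 and numpy 2.4.6. Normexp (offset 50) was run on median spot signals because the mean signal is not used here. Alternatives were array median, spike-in and quantile scaling, normexp, the deposited table, the mean or second brightest probe, a stricter filter, all spots kept and a 1.5-fold rule. The number of arrays limits the precision, and with 1 array per dose single doses were not tested.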

Additional observations from a re-analysis of the deposited data

How the results depend on the processing

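With 1 array per dose, no array could be left out and the spread between cultures is unknown. No paired analysis was possible because each dose has 1 sample. Of the members at least 2-fold from control (4 at 0.003%, 3 at 0.006%, 3 at 0.009%), normexp left 1 at each dose, a 1.5-fold rule gave 8 (6 higher, 2 lower) at 0.003% and 6 (4 higher, 2 lower) at 0.006%, and spike-in scaling gave 6 at 0.009%, all lower. The change of Bax minus that of Bcl2 was -0.39 with normexp at 0.003%, and -0.77, -0.015 and 0.88 with quantile normalization at the 3 doses. The change of Bcl2l11 minus that of Mcl1 was -0.81 with normexp at 0.003%. The trend over dose had 0 features past an adjusted p of 0.05 by limma under every alternative run. The median of all features moved with spike-in scaling by -0.19, -0.53 and -1.23 over the 3 doses and array median scaling by -0.15, -0.29 and -0.56, and 22 and 21 of the 30 member values moved by more than their spot error. Each of these scalings shifts every probe of an array by 1 value. The counts therefore follow from that shift and the size of the spot errors, and are not separate results about the members. Keeping all spots moved none of the 30. Before scaling, the spike-in signal was above that of the control array by 0.084, 0.37 and 0.62 on the log2 scale over the 3 doses. The 75th percentile was at -0.11, -0.19 and -0.57 from the control, and the array median at 0.041, 0.12 and -0.011. Why these moved apart, and why normexp differs, was not tested. Bcl2, Bid, Hrk and Bcl2l11 lie near background, where signal limits what the arrays resolve.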
